A study of Mus musculus with 4 samples.

Results

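Genes of hepatic stellate cells (HSCs) and smooth muscle were measured by RNA-seq in cultures of primary mouse liver sinusoidal endothelial cells (LSECs). The set held 10 genes, *Acta2*, *Tagln*, *Cnn1*, *Des*, *Pdgfrb*, *Pdgfra*, *Lrat*, *Rgs5*, *Dcn* and *Lum*, taken by symbol from the 18373 genes of the deposited table, with collagens left out. All 10 passed the filter on low counts and were among the 13628 genes tested. The cells came from 8-week-old balb/c mice, were cultured for 24 h, received siRNA for 48 h and are labelled as LSECs at day 3. The labels give 2 groups of 2 libraries, NC (a control siRNA) and si*Airn* (siRNA against the long non-coding RNA *Airn*), and call the libraries of a group biological replicates 1 and 2. The si*Airn* titles read siAirn1_1 and siAirn1_2 while the protocols speak of separate si*Airn* molecules, which leaves open the molecule used in each library. The labels do not say whether replicates came from separate mice, and the p-values measure the spread between these libraries only. Cells had been recovered from a Nycodenz gradient, bound with anti-CD146 magnetic beads and plated on collagen. The study used α-SMA, the protein of *Acta2*, as the HSC marker when it examined the purity of its cell fractions.

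Library totals ran from 17308382 to 18371959 estimated counts, and 3 counts equalled 0.166 to 0.175 CPM (counts scaled to a common library total). For *Airn*, NC libraries held 7 and 3 counts and si*Airn* libraries 11 and 9, a ratio of si*Airn* to NC of 1.97 with an exact binomial 95% interval of 0.88 to 4.71 (counting error only). It did not pass the filter and was not tested. With so few counts the interval includes 1, so these libraries do not show a reduction of the targeted RNA, and every direction below is that of the libraries labelled si*Airn* against those labelled NC.

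HSCs lie between sinusoidal endothelium and hepatocytes, wrap the sinusoid as pericytes do, and store vitamin A as retinyl esters. On activation they lose these stores, respond to platelet-derived growth factor (PDGF) and take on contractile genes shared with smooth muscle. Vascular smooth muscle cells and portal fibroblasts express many of the same genes, so that most of the genes described here do not mark 1 cell type alone. In bulk RNA, fewer cells of a type and less RNA per cell cannot be told apart.

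*Acta2* and *Lum* rose in libraries labelled si*Airn* relative to NC at an adjusted p under 0.05 in edgeR's quasi-likelihood test, and no member was lower. The other 8 members did not pass, although the fitted fold change was above 1 for 9 of the 10. It was above 1 for 6834 of all 13628 genes tested. Over all genes tested, 16.8% passed in either direction, 8.27% higher and 8.56% lower. At an unadjusted p under 0.05, 4 members were higher and 0 lower (16.8% of all genes were higher), and DESeq2 called 3 higher and 0 lower (6.63% of all genes were higher). DESeq2 gave no adjusted p for 2907 genes, *Cnn1* among them. These count as not called in the 6.63%. The median log2 fold change of the members was 0.35, beside 0.0013 over all genes tested, and it was 0.18 without si*Airn* replicate 2. Both calls depended on single libraries. Leaving out replicate 1 of NC, replicate 2 of NC or replicate 2 of si*Airn* left 0 members past the threshold, and leaving out replicate 1 of si*Airn* left 7. Over all genes, calls higher and lower numbered 7 and 33, 0 and 0, 723 and 723, and 1196 and 1214 in these 4 fits, against 1127 and 1167 with all libraries. The log2 fold change stayed between 0.27 and 0.40 for *Acta2* and between 0.30 and 0.55 for *Lum*. With the replicate number as a block, *Pdgfrb*, *Lrat*, *Rgs5* and *Dcn* also passed. That made 6 members higher and 0 lower, beside 2405 genes higher and 2436 lower. With GC content and length correction added, 7 members were higher and 1, *Pdgfra*, lower, beside 1855 and 2361 genes. *Dcn* was then not called. The labels name nothing that libraries of the same replicate number share.

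**Figure D1:**
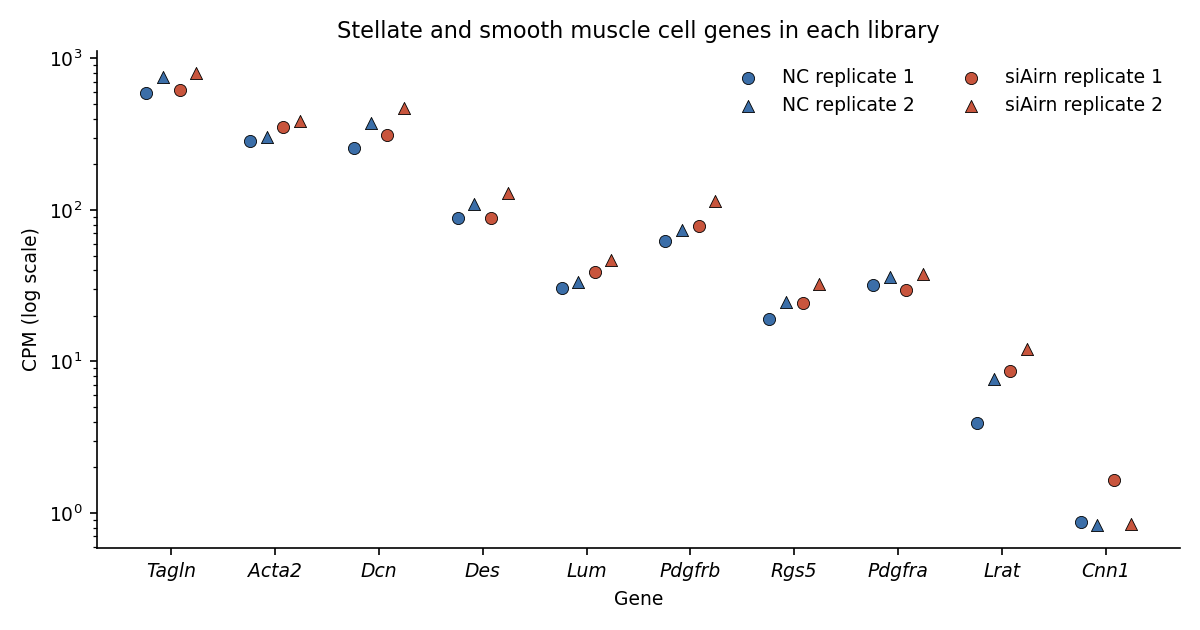
CPM of each member (log axis) in the 4 libraries, with circles for replicate 1, triangles for replicate 2, blue for NC and red for si*Airn*. The si*Airn* replicate 2 library was the highest of the 4 for 9 of 10 members, all but *Cnn1*, and NC replicate 1 was the lowest for 8. The shares of all genes with these patterns were not computed.

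*Acta2*, *Tagln* and *Cnn1* belong to the contractile apparatus. *Acta2* codes for smooth muscle α-actin (α-SMA), the usual marker of activated HSCs. It measured 286 and 305 CPM in NC and 355 and 389 CPM in si*Airn*. The groups did not overlap, and the means were 296 ± 13.7 and 372 ± 23.8 CPM (SD, n = 2). The log2 fold change was 0.33 (SE 0.07), or 1.26-fold, with an edgeR quasi-likelihood adjusted p of 0.0256. The adjusted p was 0.148 without NC replicate 1, 0.123 without NC replicate 2, 0.0787 without replicate 2 of si*Airn* and 0.0108 without its replicate 1. On log2(FPKM + 0.1) limma's adjusted p was 0.0586, and over all its alternatives it ran from 3.23e-09 to 0.148.

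*Acta2* lies on the minus strand at chr19:34241090-34255590 in GENCODE M21 (GRCm38), with no exon of another gene across its exons. Of its windows of 50 bases, the read length, 0.352% also occur in transcripts of other genes, *Actg1* among them. Its promoter is shown because smooth muscle promoters are known for CArG boxes, the element bound by serum response factor (SRF), and *Acta2* is the contractile member that passed the test. The 250 bases before its start in RefSeq (GRCm38.p6, chr19:34255374-34255623, minus strand) read 5′ to 3′, with near-matches to the CArG box in capitals:
Acta2: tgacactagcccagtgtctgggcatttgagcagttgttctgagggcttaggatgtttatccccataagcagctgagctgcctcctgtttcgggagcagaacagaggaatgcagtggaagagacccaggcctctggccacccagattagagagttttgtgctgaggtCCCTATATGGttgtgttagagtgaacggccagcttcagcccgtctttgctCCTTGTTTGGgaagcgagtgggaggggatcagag
The words in capitals begin 84 and 34 bases before the RefSeq start and do not overlap. GENCODE M21 places the start further upstream, at chr19:34255590, so both words lie inside the gene by that annotation. RefSeq promoters were matched for 6 members, and the strict CArG box was in 0 of these 6 and in 1.47% of 32851 promoters of the same length. No promoter was matched for *Tagln*, *Pdgfrb*, *Dcn* and *Lum*, so nothing is known here of theirs. The capitals follow a looser form, chosen after the strict form gave no match, in which 1 of the 6 middle bases may be C or G. It was in *Acta2* and *Lrat* and in 8.59% of all promoters. Both forms read the same on either strand, and a match is a description of the sequence only.

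*Tagln* (transgelin, SM22α, an actin-binding protein of smooth muscle and myofibroblasts) was the most abundant member in CPM. It measured 591 and 753 CPM in NC and 624 and 798 CPM in si*Airn*. The groups overlapped, with replicate 1 low and replicate 2 high in each. Between groups the log2 fold change was 0.08 (SE 0.14, edgeR quasi-likelihood adjusted p = 0.733), and it was negative without NC replicate 1 (-0.09) and also with replicate 2 of si*Airn* left out (-0.11). It was 0.26 without NC replicate 2, 0.25 without si*Airn* replicate 1 and 0.24 after correction for GC content and length, with adjusted p from 8.39e-05 to 0.862 over all alternatives. The value of *Tagln* is uncertain, since 67.9% of its exonic bases (chr9:45929619-45936058, minus strand, GRCm38) lie under exons of *Gm48529* and *Pcsk7* on the other strand and the counting is not stated to use strand. *Pcsk7*, a proprotein convertase, measured 65.9 and 54.6 CPM in NC and 56.8 and 55.1 CPM in si*Airn*.

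*Cnn1* (calponin 1, a regulator of smooth muscle contraction) was the least abundant member. Its count was 15 in each NC library, 30 in si*Airn* replicate 1 and 15 in si*Airn* replicate 2. The library that differed was si*Airn* replicate 1, and the groups overlapped. The fitted log2 fold change was 0.56 (SE 0.45, edgeR quasi-likelihood adjusted p = 0.425), and it was -0.0075 without that library.

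*Des* codes for desmin, the intermediate filament of muscle that also marks rodent HSCs. It measured 87.9 and 110 CPM in NC and 88.6 and 130 CPM in si*Airn*. The replicate 1 libraries of both groups were level, and the groups overlapped. Its fitted log2 fold change was 0.15 (SE 0.18, edgeR quasi-likelihood adjusted p = 0.607). It was 0.40 without si*Airn* replicate 1, where the adjusted p was 0.0385 (0.00036 to 0.99 over all alternatives), and it was negative without NC replicate 1 (-0.0050) and also with replicate 2 of si*Airn* left out (-0.16).

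Both PDGF receptors are members. *Pdgfrb* codes for PDGF receptor β, through which PDGF-B drives HSC and pericyte growth. It measured 62.8 and 73.5 CPM in NC and 78.7 and 115 CPM in si*Airn*. Both si*Airn* libraries were above both NC libraries, by a wide margin in replicate 2 alone. The fold was 1.42 (log2 0.50, SE 0.17), with an unadjusted p of 0.0214 and an edgeR quasi-likelihood adjusted p of 0.0861. Leaving out replicate 2 of si*Airn* lowered the log2 value to 0.21, and leaving out its replicate 1 raised it to 0.75. It passed in DESeq2 (adjusted p = 0.021) and without si*Airn* replicate 1 (adjusted p = 0.00085), with a range of 2.33e-08 to 0.341 over all alternatives.

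*Pdgfra* codes for PDGF receptor α, a marker of fibroblasts and of HSCs. It measured 31.8 and 35.9 CPM in NC and 29.4 and 37.9 CPM in si*Airn*. The si*Airn* libraries lay on either side of both NC libraries. The log2 fold change was -0.0090 (SE 0.13, edgeR quasi-likelihood adjusted p = 0.972). It was 0.16 without si*Airn* replicate 1 and 0.08 without NC replicate 2, but -0.20 without replicate 2 of si*Airn* and -0.10 without replicate 1 of NC. Correction for GC content and length gave -0.20 and limma on FPKM 0.013, with adjusted p from 0.0328 to 0.99 over all alternatives, so no direction can be read. The difference between the 2 receptors was not tested.

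*Lrat* codes for lecithin retinol acyltransferase, which makes the retinyl esters stored by quiescent HSCs. Its counts were 67 and 139 for NC and 156 and 214 for si*Airn*, or 3.91 and 7.68 CPM against 8.63 and 12.1 CPM. The groups did not overlap, but NC replicate 2 was nearer to si*Airn* replicate 1 than to NC replicate 1. The fold was 1.78 (log2 0.83, SE 0.31), with an unadjusted p of 0.0321 and an edgeR quasi-likelihood adjusted p of 0.111. The log2 fold change was 0.43 without NC replicate 1, 1.402 without NC replicate 2, 1.05 without si*Airn* replicate 1 and 0.57 without its replicate 2. The adjusted p was 0.0256 without replicate 1 of si*Airn* and ran from 0.0012 to 0.356 over all alternatives.

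*Rgs5* (regulator of G protein signalling 5) is a marker of pericytes. It measured 19.1 and 24.7 CPM in NC and 24.3 and 32.4 CPM in si*Airn*. NC replicate 2 was just above si*Airn* replicate 1, so the groups overlapped in CPM but not in FPKM, where these libraries stood at 6.21 and 6.24. On the log2 scale the fold change was 0.37 (SE 0.17, edgeR quasi-likelihood adjusted p = 0.177). It was 0.20 without NC replicate 1, 0.15 with replicate 2 of si*Airn* left out and 0.56 with its replicate 1 left out, where the adjusted p was 0.0227 (0.0050 to 0.585 over all alternatives).

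The matrix members are small leucine-rich proteoglycans, which bind collagen fibrils and set their diameter. *Dcn* (decorin) measured 257 and 377 CPM in NC and 313 and 473 CPM in si*Airn*. The replicate 2 libraries were high in both groups, and the groups overlapped. A log2 fold change of 0.31 was fitted (SE 0.22, edgeR quasi-likelihood adjusted p = 0.374). It was 0.10 (adjusted p = 0.821) after correction for GC content and length and -0.018 without si*Airn* replicate 2, and the adjusted p was 0.0277 without si*Airn* replicate 1 (0.00062 to 0.958 over all alternatives).

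*Lum* (lumican) measured 30.5 and 33.4 CPM in NC and 39.2 and 46.8 CPM in si*Airn*. The groups did not overlap, and the means were 31.9 ± 2.07 and 43.0 ± 5.33 CPM (SD, n = 2). The log2 fold change was 0.43 (SE 0.11), or 1.35-fold, with an edgeR quasi-likelihood adjusted p of 0.0379. The adjusted p was 0.197, 0.146 and 0.116 without NC replicate 1, NC replicate 2 and si*Airn* replicate 2, and 0.0062 with replicate 1 of si*Airn* left out. It was 0.056 with limma on log2(FPKM + 1) and 0.0642 with correction for GC content and length, within a range of 4.06e-05 to 0.197 over all alternatives. *Lum* lies at chr10:97565128-97572703 (plus strand, GRCm38), with no exon of another gene across its exons and no window of 50 bases shared.

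The threshold of the study's methods, a fold change over 1.4 with p under 0.05, gave another selection. It took *Pdgfrb* and *Lrat* and left out *Acta2* and *Lum*, whose folds were 1.26 and 1.35. *Pdgfrb* stood just inside this limit at 1.42. Among all genes tested, 5.25% were higher at that threshold. Groups did not overlap in CPM, with si*Airn* higher, for 4 members (*Acta2*, *Pdgfrb*, *Lrat* and *Lum*) and for 30.9% of all genes tested.

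The members differed between libraries of 1 group as well as between groups. Replicate 2 was above replicate 1 in both groups for 9 of the 10 members, all but *Cnn1*, and for 30.9% of all genes tested. The median size of the difference between replicates was 0.27 in NC and 0.45 in si*Airn* on the log2 scale, beside 0.12 in each group over all genes. In *Acta2* it was small, with replicate 2 over replicate 1 at 1.07 in NC and 1.09 in si*Airn*. *Dcn* stood at 1.47 and 1.51, and *Lrat* at 1.97 and 1.402. In 5 members (*Tagln*, *Des*, *Pdgfra*, *Rgs5* and *Dcn*) NC replicate 2 exceeded si*Airn* replicate 1. The members together took 0.136% and 0.169% of all counts for NC and 0.159% and 0.205% for si*Airn*. The labels do not say what the replicate numbers share.

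**Figure D2:**
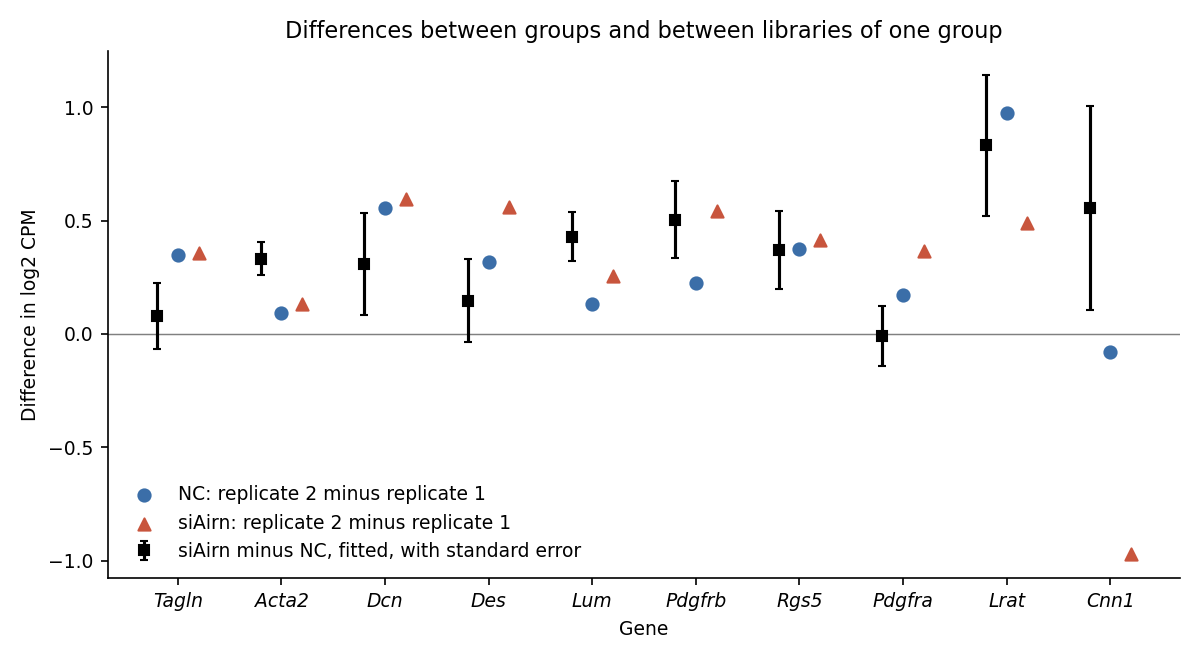
Difference in log2 CPM for each member, with black squares for si*Airn* minus NC (fitted, bars are the standard error) and with circles (NC) and triangles (si*Airn*) for replicate 2 minus replicate 1. In *Acta2* and *Lum* the difference between groups exceeded both differences between replicates, while in *Tagln*, *Des*, *Dcn*, *Rgs5* and *Pdgfra* it was smaller than both.

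Levels of different genes are compared per length, in FPKM (counts scaled by transcript length and library total). *Tagln* was the highest at a mean of 472 FPKM over the 4 libraries, then *Acta2* at 220.0 and *Dcn* at 204 FPKM. *Acta2* and *Dcn* overlapped, and *Dcn* was the higher of the pair in some libraries. *Des* followed at 35.4, *Lum* at 19.2 and *Pdgfrb* at 15.9 FPKM. *Lum* and *Pdgfrb* overlapped in range, with *Lum* higher in each library. *Rgs5* (6.35 FPKM) and *Pdgfra* (5.21 FPKM) also overlapped, and *Lrat* at 1.55 and *Cnn1* at 0.75 FPKM closed the order. *Lrat* and *Cnn1* overlapped in range too, with *Lrat* higher in each library. Contractile members thus stood at both ends of the order, transgelin at its top and calponin at its foot. The place of *Tagln* rests on a value that is uncertain, as said above, because exons of other genes lie across its exons.

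The genes around the members were described in 11 lists by role, 101 genes beyond the members, of which 99 were in the table and 76 were tested. Among these, 10 were higher and 5 lower in the libraries labelled si*Airn* (edgeR's quasi-likelihood test), beside 8.27% and 8.56% of all genes, and the median log2 fold change was 0.09. The 10 and 5 became 0 and 1 without NC replicate 1, 0 and 0 without NC replicate 2, 17 and 6 without si*Airn* replicate 1, and 8 and 6 without its replicate 2, beside the counts over all genes given above for the same fits.

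Of 13 tested genes of quiescent HSCs, *Reln* (reelin, a secreted glycoprotein) rose, from 18.5 and 18.3 to 31.3 and 41.2 CPM (log2 0.98, SE 0.14, edgeR adjusted p = 0.0095). None fell, 4 were higher and 0 lower at an unadjusted p under 0.05, and DESeq2 called 2 higher and 0 lower. The median was 0.23. *Colec11*, a collectin with the highest level of this list, measured 220 and 240 CPM in NC and 210 and 202 CPM in si*Airn* and did not pass. *Hgf* codes for hepatocyte growth factor, made by HSCs and measured by the study in LSECs as well. Its log2 fold change was 0.57 (edgeR adjusted p = 0.0752), and the libraries do not show which cell the counts came from. *Gfap*, a classical HSC marker, was close to undetected, at 2 and 0 counts (NC) and 0 and 3 counts (si*Airn*).

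Of 11 genes listed for smooth muscle, 7 were tested, with 0 calls in either direction (1 higher and 0 lower at an unadjusted p under 0.05, 0 and 0 in DESeq2) and a median of 0.13. The list is not pure, since *Casq2* (tested), *Pln* and *Ldb3* (both too low to test) are also genes of heart or striated muscle. *Myocd*, the coactivator that defines smooth muscle, was at 0 in all 4 libraries, which allows up to 0.166 to 0.175 CPM. *Myh11*, the smooth muscle myosin heavy chain, counted 28 and 27 reads for NC and 45 and 59 for si*Airn* (log2 0.89, SE 0.29, edgeR adjusted p = 0.0797). *Smtn* (smoothelin), the highest of the list in CPM though not per length, did not pass either, at a log2 fold change of 0.13 (edgeR adjusted p = 0.191). The other tested genes had log2 fold changes of -0.51 for *Hspb6*, -0.16 for *Ppp1r14a*, -0.13 for *Lmod1*, 0.37 for *Casq2* and 0.50 for *Synpo2*, and none passed.

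The list of shared contractile and SRF pathway genes had 3 higher and 1 lower of 15 tested, and a median of 0.16. *Cald1* (caldesmon) measured 729 and 773 CPM in NC and 975 and 1157 CPM in si*Airn* (log2 0.51, edgeR adjusted p = 0.0154). *Flna* (filamin A, an actin crosslinker) measured 875 and 861 CPM against 1080 and 1215 CPM (log2 0.40, edgeR adjusted p = 0.0162). *Vcl* (vinculin, of focal adhesions) measured 291 and 282 CPM against 358 and 412 CPM (log2 0.43, edgeR adjusted p = 0.0177), with 25.5% of its exonic bases under exons of *Ap3m1*. In these genes, the groups did not overlap. *Tagln2*, the paralog of *Tagln*, went the other way, from 888 and 1005 to 556 and 603 CPM (log2 -0.71, edgeR adjusted p = 0.0061). *Srf* itself had a log2 fold change of 0.00011 (SE 0.07), and *Tpm1* (tropomyosin 1), the most abundant of the list, one of 0.16 (edgeR adjusted p = 0.19).

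Of the actin paralogs, only *Actb* and *Actg1*, the cytoplasmic actins, were tested. *Actb* measured 5377 and 5685 CPM in NC and 5470 and 6218 CPM in si*Airn* (log2 0.08, SE 0.08), and neither gene passed in edgeR or DESeq2 or at an unadjusted p under 0.05. Of the intermediate filament genes, *Synm* (synemin, a partner of desmin) was higher, at 4.96 and 5.69 against 7.63 and 8.65 CPM (log2 0.61, edgeR adjusted p = 0.049). That call was lost in DESeq2, in limma, with upper-quartile scaling, with no filter, with correction for GC content and length and without any 1 library other than si*Airn* replicate 1. *Vim* (vimentin), the most abundant of that list, had a log2 fold change of 0.11 (edgeR adjusted p = 0.55).

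The ligands of the PDGF receptors gave 0 calls among 4 tested (edgeR's quasi-likelihood test), with 0 higher and 1 lower at an unadjusted p under 0.05 and in DESeq2. That gene was *Pdgfb*, the endothelial ligand of PDGF receptor β and the most abundant of the list. It measured 377 and 349 CPM in NC and 312 and 258 CPM in si*Airn* (log2 -0.35, SE 0.10, edgeR adjusted p = 0.0533). Its receptor gene *Pdgfrb* stood at 0.50 on the same scale, as given above.

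Around *Lrat*, 2 of 8 tested genes of retinoid handling were lower and 0 higher, with 0 higher at an unadjusted p under 0.05 and in DESeq2. *Dhrs3*, a retinaldehyde reductase, fell from 352 and 327 to 245 and 221 CPM (log2 -0.54, edgeR adjusted p = 0.0091). *Cyp26b1*, which degrades retinoic acid, fell from 1755 and 1545 to 1298 and 1036 CPM (log2 -0.50, edgeR adjusted p = 0.0294). In both, the groups did not overlap, and 1 of the 2 calls was lost with correction for GC content and length. Endothelial cells can express these genes, and the libraries do not show which cell the counts came from.

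Around *Rgs5*, the pericyte list had 0 higher and 1 lower of 7 tested (0 and 1 in DESeq2 and at an unadjusted p under 0.05) and a median of -0.0025. The gene was *Kcnj8*, a subunit of ATP-sensitive potassium channels, at 108 and 151 CPM in NC and 67.0 and 76.5 CPM in si*Airn* (log2 -0.85, edgeR adjusted p = 0.0166). *Cspg4* (NG2), a defining pericyte gene, stood at 0 and 4 counts for NC and 5 and 4 for si*Airn*. *Mcam*, the highest of the list in CPM though not in mean FPKM, codes for CD146, the antigen of the beads used in isolation, and measured 136 and 109 CPM in NC and 134 and 110 CPM in si*Airn*. Among other RGS genes, *Rgs16* was higher (46.7 and 48.4 against 56.3 and 65.9 CPM, log2 0.36, edgeR adjusted p = 0.0391), a call lost with no filter, in limma and without any 1 library other than si*Airn* replicate 1. *Rgs3*, the most abundant, was lower (93.9 and 95.5 against 81.8 and 76.5 CPM, log2 -0.26, edgeR adjusted p = 0.0404), a call lost in DESeq2, in limma, with correction for GC content and length and without any 1 library other than si*Airn* replicate 1.

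Around *Dcn* and *Lum*, 4 other small leucine-rich proteoglycans were tested, with 0 calls in edgeR, 1 higher and 1 lower at an unadjusted p under 0.05, and 0 higher and 1 lower in DESeq2. *Bgn* (biglycan), the closest relative of decorin and the most abundant of them, measured 512 and 572 CPM in NC and 400 and 465 CPM in si*Airn* (log2 -0.33, SE 0.09, edgeR adjusted p = 0.0537). It thus stood in the other direction from *Lum*, without passing the test.

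The list of fibroblast and matrix genes other than collagens held 4 calls, each higher, among 8 tested of 15, and a median of 0.26. *Tnc* (tenascin C, a matrix glycoprotein of wound repair) measured 1857 and 2004 CPM in NC and 2516 and 3342 CPM in si*Airn* (log2 0.60, edgeR adjusted p = 0.0238). *Fbn1* (fibrillin 1, of microfibrils) measured 68.0 and 69.5 CPM against 101 and 133 CPM (log2 0.77, edgeR adjusted p = 0.0125), with 20.1% of its exonic bases under *Gm9913*. *Postn* (periostin) measured 107 and 109 against 147 and 154 CPM (log2 0.48, edgeR adjusted p = 0.0079), and *Lox*, the collagen crosslinking oxidase, 19.1 and 24.3 against 30.8 and 41.2 CPM (log2 0.73, edgeR adjusted p = 0.03). In all 4, the groups did not overlap. None was lower (0 also at an unadjusted p under 0.05 and in DESeq2). The calls were 0 without either NC library and 1 with correction for GC content and length. The other 4 tested genes did not pass. They were *Thy1* (log2 -0.64) and *Fbln2* (log2 -0.04), known in portal fibroblasts, *Loxl1* (log2 -0.50) and *Timp1* (log2 0.04). The other 7 of the 15, *Dpt*, *Mfap4* and *Pi16* among them, were too low to test.

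**Figure D3:**
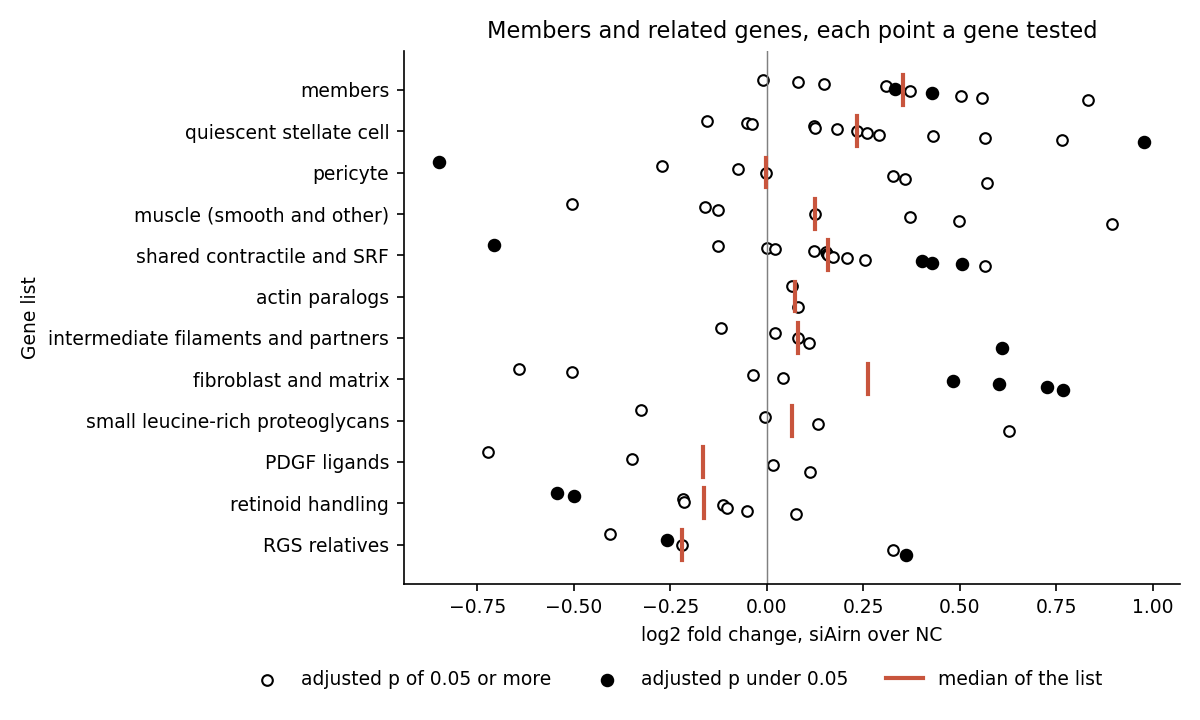
Log2 fold change (si*Airn* over NC) of each gene tested, for the members and the 11 related lists, with filled points at an adjusted p under 0.05 and a red bar at each list's median. Among the lists shown, the medians ran from -0.22 for other RGS genes to 0.35 for the members. Of the lists of other liver cells, not shown, hepatocyte genes had a median of 0.50, endothelial genes -0.49 and macrophage genes -0.80.

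Markers of other liver cells also differed between the libraries, with hepatocyte genes higher and endothelial and macrophage genes lower in si*Airn*. Their part in the results above was not tested. Endothelial genes summed to 9387 and 9037 CPM in NC and 6815 and 6048 CPM in si*Airn*. Of 10 tested, 6 were lower (*Pecam1*, *Cdh5*, *Eng*, *Erg*, *Stab1* and *Lyve1*) and 0 higher, and none was at 0. The 10 members summed to 1371 and 1721 CPM in NC and 1563 and 2034 CPM in si*Airn*. The member sums of the groups overlapped, whereas those of the endothelial genes did not.

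Hepatocyte genes summed to 635 and 801 CPM in NC and 891 and 1156 CPM in si*Airn*. Of 9 tested, 2 were higher (*Apoa1*, log2 1.19, edgeR adjusted p = 0.0432, and *Apob*, log2 0.70, edgeR adjusted p = 0.0128) and 0 lower. Albumin (*Alb*), the most abundant, measured 497 and 638 CPM against 705 and 900 CPM (edgeR adjusted p = 0.0598). As with 9 of the members, replicate 2 was above replicate 1 in both groups, here for 8 of the 9 genes tested. Kupffer cell and macrophage genes summed to 124 and 179 CPM in NC and 91.9 and 81.2 CPM in si*Airn*, and 6 of 10 were lower (*Adgre1*, *Clec4f*, *Cd68*, *C1qa*, *C1qc* and *Cd5l*) and 0 higher. The counts given as 0 for these 3 lists were 0 also at an unadjusted p under 0.05 and in DESeq2. Without NC replicate 1 and without NC replicate 2, the calls fell to 1 and 0 (endothelial), 0 and 0 (hepatocyte) and 0 and 0 (macrophage). Without si*Airn* replicate 2 they were 5, 1 and 3, and with replicate 1 of that group left out they were 7, 4 and 8. In DESeq2 the calls were 6, 3 and 3, and with correction for GC content and length 6, 1 and 2. None of the listed hepatocyte or macrophage genes was at 0 in all libraries.

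**Figure D4:**
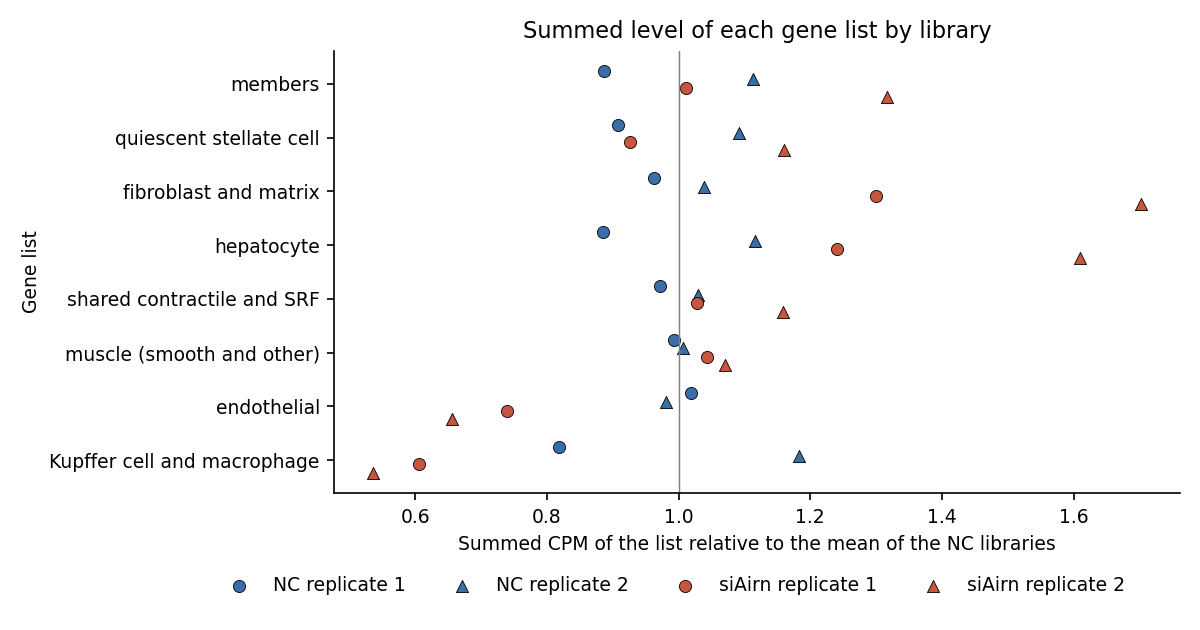
Summed CPM of the members and of 7 gene lists in each library, relative to the mean of the NC libraries. The members stood at 0.887 and 1.11 in NC and at 1.01 and 1.32 in si*Airn*, while endothelial genes stood at 0.740 and 0.657 in si*Airn* and hepatocyte genes at 1.24 and 1.61.

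The genes nearest to the members in pattern were found by the Euclidean distance of log2 CPM, centred on each gene's mean over the 4 libraries, over 10745 genes whose mean reached 5 CPM. Nearest to the mean of the members were *Clca3a1* (distance 0.019), *Acot2* (0.040), *Atp1b1* (0.048), *Cpeb1* (0.052) and *Cyp2c29* (0.056). *Clca3a1* measured 35.8 and 44.8 CPM in NC and 46.5 and 56.8 CPM in si*Airn*. Nearest to *Acta2* were *Krt19* (0.013), *Zbtb34* (0.024), *Clock* (0.025), *Pdk4* (0.026) and *Cop1* (0.035). With 4 libraries, many genes lie close to any pattern, and none of these 10 belongs to the lists of HSC or smooth muscle genes.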

How the data were processed

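RNA-seq of primary mouse LSECs was analysed in 4 libraries, grouped by their labels. The authors deposited estimated counts per gene (not normalized, 76.5% to 76.8% of them whole) and a second value per library, whose unit the header does not name and which was read as FPKM computed by the authors, since it follows count over length and does not sum to 1 total. The submitters' processing notes name BWA, Bowtie2, RSEM and hg19, a human build, with no role or version. The mouse build, annotation, strand setting and filters are not given in the sources used here. The means that the authors deposited were not used.

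Rounded counts were tested with edgeR 4.0.16 in R 4.3.3 (filterByExpr, TMM with factors from 0.985 to 1.02, glmQLFit, glmQLFTest, no covariate), with Benjamini-Hochberg adjustment over 13628 genes. Standard errors are those implied by the F statistic. CPM are scaled by TMM. FPKM as deposited were used to compare genes and, as log2(FPKM + pseudocount), in limma 3.58.1. Alternatives were DESeq2 1.42.0, upper-quartile scaling, a likelihood-ratio test, other filters, limma, a replicate block, GC content and length correction (splines with 5 degrees of freedom, 95.0% of genes with values), the threshold of the study and leaving out each library. The calculations were tested on simulated data.

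The members and the 18 other gene lists were chosen with earlier results of these data known. The text names all members, each list gene with an adjusted p under 0.05 and the gene of highest mean CPM of the lists, the 5 nearest genes to the members' mean and to *Acta2* and, outside that rule and chosen after their values were seen, *Hgf*, *Myh11*, *Srf*, *Actg1*, *Pcsk7*, the remaining tested genes of the smooth muscle and fibroblast lists and genes at or near 0. *Mrtfa* and *Mrtfb* were found under older symbols, and *Kera*, *Epyc*, *Trbc1* and *Retnlg* had no row. Overlaps of exons and shared windows of 50 bases came from GENCODE M21, promoters from RefSeq.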

Additional observations from a re-analysis of the deposited data

How the results depend on the processing

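Upper-quartile scaling and the other filters on counts kept the direction and call of each member they could be run for. The limma alternatives gave *Acta2* 0.41 on log2(FPKM + 0.1) and 0.41 with no filter, neither past the threshold, *Lum* 0.44, 0.46 and 0.44, not past it, and *Pdgfra* 0.013, 0.014 and 0.013, reversed from -0.0090. *Lum* also fell short with GC content and length correction (0.38), which moved *Tagln* to 0.24, *Des* to 0.27, *Rgs5* to 0.24, *Pdgfra* to -0.20 and *Dcn* to 0.10 with no change of call. *Pdgfrb* passed in DESeq2 (0.51) and the likelihood-ratio test (0.50). Members called higher numbered 2 in edgeR's quasi-likelihood test, 3 in DESeq2 and the likelihood-ratio test, 1 in limma on log2(FPKM + 1), 0 and 0 in the other limma fits and 1 with GC content and length correction. Related genes called higher numbered 0 and 0 in limma on log2(FPKM + 0.1) and with no filter, and those lower 3, 0 and 0 in limma and 3 with the GC content correction. Over all genes, the higher calls were 1127 in edgeR, 721, 3 and 0 in limma and 372 with the GC content correction, and the lower calls 1167, then 521, 4 and 0, and 700. The cause was not tested.

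Without 1 library, log2 fold changes ran from 0.27 to 0.40 for *Acta2*, -0.11 to 0.26 for *Tagln*, -0.16 to 0.40 for *Des*, 0.21 to 0.75 for *Pdgfrb*, -0.20 to 0.16 for *Pdgfra*, 0.43 to 1.402 for *Lrat*, 0.15 to 0.57 for *Rgs5*, -0.018 to 0.61 for *Dcn*, 0.30 to 0.55 for *Lum* and -0.0075 to 0.96 for *Cnn1*. The median of the members ran from 0.18 to 0.50 and that of the related genes from -0.01 to 0.14. Calls ran from 0 to 7 members higher, 0 to 17 related genes higher and 0 to 6 lower, and 0 to 1196 genes higher and 0 to 1214 lower over all genes. These fits assume that the lone library of a group varies like the others.

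With the replicate number as a block, *Pdgfrb* (0.49), *Lrat* (0.86), *Rgs5* (0.37) and *Dcn* (0.31) also passed, 6 members in all, with 22 related genes higher and 9 lower and 2405 genes higher and 2436 lower. With the replicate block and GC content and length correction together, 7 members were higher and 1 lower, among them *Tagln* (0.24), *Des* (0.25), *Pdgfrb* (0.48), *Lrat* (0.67), *Rgs5* (0.24) and *Pdgfra* (-0.20), with 34 related genes higher and 11 lower and 1855 genes higher and 2361 lower. *Dcn* was not among them (0.09, adjusted p = 0.146). The numbers are not taken as pairing, since the labels name nothing shared and there are only 2 pairs. Across 13628 genes, which are not independent, the difference between replicates in NC correlated with that in si*Airn* at r = 0.23 and rho = 0.31.

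Depth limits *Cnn1*, at 15 to 30 counts a library, and *Airn*. DESeq2 gave no adjusted p for 2907 genes.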

Other observations

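Markers of cells that the text has not described were low. Mesothelial genes summed to 14.6 and 10.5 CPM in NC and 12.9 and 10.7 CPM in si*Airn*, and 0 of 5 tested passed in edgeR's quasi-likelihood test (0 higher and 1 lower at an unadjusted p under 0.05, 0 in DESeq2). Cholangiocyte genes summed to 32.1 and 30.4 CPM in NC and 34.1 and 31.8 CPM in si*Airn*, with 0 of 5 passing (1 higher and 0 lower at an unadjusted p under 0.05, 0 in DESeq2), and *Krt19*, a keratin of bile duct cells and the most abundant of them, measured 14.9 and 16.0 against 18.5 and 20.2 CPM. The highest gene in CPM was *Gpm6a* (mean 5.23 CPM over the 4 libraries) for mesothelium, *Cd3e* (1.94 CPM) for lymphocytes and *S100a8* (0.643 CPM) for neutrophils. Lymphocyte genes summed to between 3.03 and 4.97 CPM and neutrophil genes to between 0.350 and 1.05 CPM, with 2 genes and 1 gene tested and 0 calls in edgeR and DESeq2 (1 lymphocyte gene higher and 0 neutrophil genes at an unadjusted p under 0.05). *Camp* was at 0 in all 4 libraries.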
